A study of Caenorhabditis elegans with 52 samples.

Results

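The 10 cyp-35 genes of Caenorhabditis elegans encode cytochrome P450 enzymes of 4 subfamilies: cyp-35A1 (C03G6.14), cyp-35A2 (C03G6.15), cyp-35A3 (K09D9.2), cyp-35A4 (C49G7.8), cyp-35A5 (K07C6.5), cyp-35B1 (K07C6.4), cyp-35B2 (K07C6.3), cyp-35B3 (K07C6.2), cyp-35C1 (C06B3.3) and cyp-35D1 (F14H3.10). They were taken by gene ID from the 45461 gene IDs of the count tables, and the family was chosen with earlier results of these data known. Cytochrome P450s are haem enzymes that insert oxygen into fats, sterols and foreign chemicals, with electrons from a reductase. The CYP35 enzymes are best known in this worm for their induction by foreign chemicals. cyp-35A genes are active in the intestine, the worm's main site of detoxification and fat storage, and have been linked to fat content.

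Polyadenylated RNA from whole young adult hermaphrodites was sequenced in 52 libraries. The groups were PL worms (puf-8; lip-1, 24 libraries), PF worms (puf-8 fbf-1, 10 libraries) and wild-type N2 worms (18 libraries). The proteins mutated are a pair of PUF-family repressors that bind RNA in germ cells (PUF-8 and FBF-1) and an ERK phosphatase (LIP-1). Both mutants carry a puf-8 mutation, so no group separates puf-8 from the second mutation, and which alleles they carry is not stated in the sources used here. Worms were held in liquid S medium with bacteria and 100 uM U0126, a blocker of the kinase MEK, or with the DMSO vehicle, or were collected untreated. PL worms were sampled at 1 h in 3 libraries per treatment and at 2, 4, 6 and 18 h in 2 each. PF worms were sampled at 1, 2, 4 and 6 h in 1 library per treatment, and N2 worms at 1, 2, 6 and 18 h in 2 each. Each genotype had 2 untreated libraries. The series concerns the competence of germ cells to change sex.

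Counts assigned to genes totalled 5658731 to 35120700 per PL library, 5370270 to 15996513 per PF library and 9364012 to 25603070 per N2 library. puf-8 had a median of 5.88 CPM (counts scaled to a common library total) in PL and 4.31 in PF, against 152 in N2. lip-1 had a median of 1.80 CPM in PL against 72.1 in N2, and fbf-1 had 0.834 CPM in PF against 30.7 in N2. lip-1 was also low in PF, whose label names no lip-1 mutation, with 2.61 to 8.51 CPM against 0.314 to 3.99 CPM in PL. The puf-8 ranges overlapped, with up to 31.9 CPM in PL and down to 28.6 CPM in N2. That lowest N2 value came from N2 untreated replicate 2. This library stood apart, with 3553 CPM over 10 sperm genes, against 2.45 to 32.0 CPM in the other 17 N2 libraries, and with 468 CPM over 10 oocyte genes, against 7198 CPM or more in the others. Whether it carries the right label was not tested. Its correlation with the other untreated N2 library was 0.515, against 0.831 to 0.997 for all other pairs of replicates. PL 1 h replicates 1 and 2 of both treatments stood apart from replicate 3 in genes of the molt, whose sums ran from 122 to 1919 CPM in U0126 and from 131 to 1580 CPM in DMSO. All 12 intestine markers were detected in every library. Nothing in the labels says that replicates were separate cultures, so every p-value rests on the spread among these libraries alone, which may be technical. In whole worms, fewer cells of a type and less RNA per cell cannot be told apart.

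All 10 genes lie on chromosome V in the WBcel235 annotation. cyp-35A5, cyp-35B1, cyp-35B2 and cyp-35B3 follow each other on 1 strand with 0 genes between them and gaps of 434, 922 and 829 bases. cyp-35A1 and cyp-35A2 are 545 bases apart with 0 genes between them, and cyp-35A3 and cyp-35A4 have 1 gene between them. cyp-35C1 and cyp-35D1 stand alone. Exon lengths run from 1500 bases (cyp-35B3) to 1727 bases (cyp-35A5), so CPM per kilobase of exon ranks the members almost as CPM does. The gene K07C6.16 overlaps cyp-35B1 and K07C6.17 overlaps cyp-35B3 on the opposite strand. The library kit does not mark strand, so reads of such a pair cannot be told apart. Reads of close copies such as cyp-35A3 and cyp-35A4 may also have been split between them. The separate values of these genes are uncertain to that extent.

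A filter of 1 CPM in at least 2 libraries left 9 of the 10 genes among 16462 tested. cyp-35A2, cyp-35A5, cyp-35C1 and cyp-35D1 reached 1 CPM in all 52 libraries. cyp-35A1 and cyp-35B2 each reached it in 25 libraries, 21 with U0126 and 4 without it. The PF fit was filtered on its own DMSO and U0126 libraries, where cyp-35A1 and cyp-35B2 reached 1 CPM only with U0126. cyp-35A4 reached 1 CPM in PF DMSO at 4 h only, so it too needed U0126 libraries to pass. These genes entered the PF tests through the libraries where they were high, which adds no separate support for a rise. cyp-35B3 reached 1 CPM in 1 library, had 0 counts in 29 and was not tested.

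Without the drug the family was carried by cyp-35A2, whose product is a CYP35A enzyme tied in worm studies to fat storage. Per kilobase of exon cyp-35A2 had the highest mean of the members in 16 of 16 untreated and DMSO groups. In DMSO its libraries overlapped those of cyp-35C1 in PL at 1 h and in N2 at 1 and 2 h, and each PF hour has 1 library. The untreated level of cyp-35A2 was 31.3 CPM per kb in PL, 40.99 in PF and 20.8 in N2. cyp-35C1 came second in the untreated groups, at 11.1 CPM per kb in PL, 14.6 in PF and 6.80 in N2. In PL the members at places 2 to 6 were separated by more than the spread of the 2 libraries, and further down cyp-35B1, cyp-35A1, cyp-35B2 and cyp-35B3 overlapped their neighbours. In N2, where replicate 2 stands apart, cyp-35D1, cyp-35B1, cyp-35A5, cyp-35A3 and cyp-35A4 overlapped their neighbours.

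Untreated mutants held more cyp-35A2 and cyp-35A5 RNA than untreated N2. cyp-35A2 had 50.7 and 48.7 CPM in PL and 78.8 and 51.4 CPM in PF, against 24.2 and 41.98 CPM in N2. Neither mutant overlapped N2. In edgeR's quasi-likelihood test with Benjamini-Hochberg adjustment, cyp-35A2 was higher in PL by 0.73 ± 0.24 on the log2 scale (± is the SE throughout; adjusted p = 0.0197) and in PF by 1.11 ± 0.25 (adjusted p = 0.00082). cyp-35A5 had 5.52 and 7.35 CPM in PL and 6.87 and 11.7 CPM in PF, against 1.55 and 3.26 CPM in N2. It was higher in PL by 1.56 ± 0.47 (edgeR adjusted p = 0.0109) and in PF by 2.09 ± 0.49 (adjusted p = 0.00142). cyp-35D1, which in this worm metabolises the anthelmintic thiabendazole, was called higher in PL and not in PF, with 12.8 and 11.3 CPM in PL and 3.82 and 5.60 CPM in PF, against 1.15 and 7.33 CPM in N2 (log2 1.70 ± 0.44 in PL, edgeR adjusted p = 0.00367). For cyp-35D1 the PL and PF levels differed by 1.36 ± 0.45 on the log2 scale with an edgeR adjusted p of 0.168.

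In all, 3 of the 9 tested members were higher in untreated PL than in N2 and 1, cyp-35B1, was lower, where 12.4% of all genes were called higher and 25.7% lower. In PF, cyp-35A2, cyp-35A5 and cyp-35C1 were higher than in N2, where 8.69% of all genes were called higher. Those shares of all genes depend on N2 untreated replicate 2, so the counts of members cannot be read as exceeding them. Without that library in the fit, the median log2 fold change of all genes was 0.63 in PL and 0.43 in PF. With it, the median was -0.21 and -0.25. The call of cyp-35B1 (log2 -3.53 ± 0.93, edgeR adjusted p = 0.00402) rested on N2 untreated replicate 2, which held 6.08 CPM against 0.115 CPM in replicate 1, and turned to 0.88 (adjusted p = 0.493) without it. Without N2 untreated replicate 1, cyp-35A2, cyp-35A5 and cyp-35D1 lost their PL calls (log2 0.48, 1.21 and 0.96, edgeR adjusted p = 0.21, 0.124 and 0.0665), and without N2 untreated replicate 2 cyp-35D1 moved to 3.36. cyp-35A2 also lost its PL call without either PL library (adjusted p = 0.0905 and 0.0558), cyp-35A5 without PL replicate 2 (adjusted p = 0.0715), and cyp-35C1 its PF call without any 1 of the 4 libraries (adjusted p = 0.094 to 0.145). Between untreated PL and PF, 0 of 9 members were called by edgeR, where 0.863% of all genes were called higher and 0.152% lower. 1 member, cyp-35D1, had an unadjusted p under 0.05. Tissue markers differed in the same comparisons. Of 12 intestine markers 9 were higher in untreated PL than in N2 (median log2 1.09) and 4 in PF (0.49), with sums of 8056 to 8299 CPM in PL and 5619 to 5821 CPM in PF against 4130 to 5566 CPM in N2. Of 10 oocyte markers 9 were lower in each mutant, and 5 of 6 body wall muscle markers were higher in PL. Their part in the cyp-35 differences was not tested.

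Taken as a sum, the family stood higher in U0126 than in DMSO in all 3 genotypes from 2 h on. In N2 the summed level of the 10 genes was 108 and 178 CPM in U0126 against 65.1 and 133 CPM in DMSO at 1 h. It was 698 and 821 CPM against 87.5 and 146 CPM at 2 h, 4052 and 3983 CPM against 88.6 and 95.2 CPM at 6 h, and 1747 and 1788 CPM against 114 and 99.2 CPM at 18 h. From 2 h on the lowest U0126 sum in N2 was several times the highest DMSO sum, and the 6 h libraries were the highest.

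In PL the sum was 459, 255 and 325 CPM in U0126 against 205, 142 and 115 CPM in DMSO at 1 h, and 1161 and 1350 CPM against 117 and 128 CPM at 2 h. At 4 h it was 5182 and 3388 CPM against 102 and 93.4 CPM. At 6 h it stood at only 552 and 658 CPM in U0126 against 164 and 143 CPM in DMSO, and at 18 h at 2594 and 3902 CPM against 76.1 and 87.8 CPM. The PL sums were thus high at 4 h and 18 h and low at 6 h, in both replicates of each hour. The fall from 4 h to 6 h was not particular to the family. Over 64 other P450 genes the PL sum in U0126 was 2698 and 2325 CPM at 4 h. At 6 h that sum was 849 and 895 CPM, against 882 and 737 CPM in DMSO. At 18 h it was 741 and 747 CPM, against 778 and 763 CPM in DMSO.

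In PF the sum was 165 CPM in U0126 against 112 CPM in DMSO at 1 h, 824 against 106 at 2 h, 1298 against 137 at 4 h and 8493 against 102 at 6 h. The 8493 CPM amounted to 0.849% of all counts assigned to genes in that library, the highest share in the series. Each PF hour has 1 library per treatment and so no replicate check of its own. Untreated sums were 89.5 and 89.8 CPM in PL, 118 and 93.3 CPM in PF and 40.0 and 70.7 CPM in N2.

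**Figure D1:**
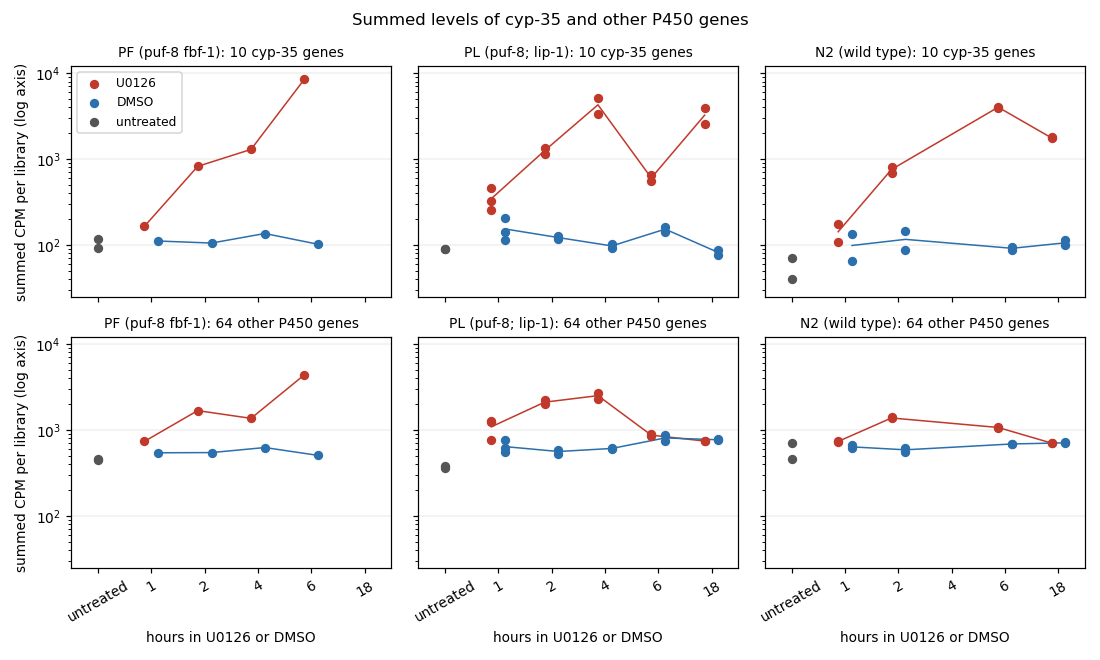
Summed CPM (log axis) of the 10 cyp-35 genes (top row) and of 64 other P450 genes (bottom row) in each library against hours of treatment, in PF, PL and N2; red is U0126, blue DMSO, grey untreated, and lines join group means. The cyp-35 sum in U0126 reached 8493 CPM in PF at 6 h and 4052 CPM in N2 at 6 h, and in PL it was lower at 6 h (552 and 658 CPM) than at 4 h or 18 h.

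Most P450 counts came from cyp-35 genes in U0126 in PL at 4 and 18 h, in PF at 6 h and in N2 at 6 and 18 h. They made 65.8% and 59.3% of all P450 counts in PL in U0126 at 4 h, against 14.3% and 13.3% in DMSO. In PL at 18 h their share was 77.8% and 83.9% in U0126 against 8.91% and 10.3% in DMSO. In PF at 6 h it was 66.0% against 16.8%. In N2 it was 79.2% and 78.7% against 11.5% and 12.1% at 6 h, and 71.2% and 71.7% against 13.9% and 12.2% at 18 h. The share was lower at the other hours from 2 h on, at 39.4% and 42.4% in PL in U0126 at 6 h against 15.7% and 16.2% in DMSO, at 48.7% in PF at 4 h against 17.9%, and at 32.9% to 37.9% in U0126 at 2 h over the 3 genotypes against 13.5% to 19.3% in DMSO. No U0126 share given here overlapped the DMSO shares.

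The number of members called higher in U0126 than in DMSO grew with time in N2. It was 0 of 9 at 1 h, where 0.0121% of all genes were called higher. It was 6 at 2 h against 0.626% of all genes, 7 at 6 h against 0.504%, and 8 at 18 h against 15%. The members' median log2 fold change was 3.05 at 2 h, 5.36 at 6 h and 4.30 at 18 h, and that of all genes tested was -0.01, -0.08 and -0.40. At 1 h edgeR called 4 genes in all, 232 genes had an unadjusted p under 0.05, none of them a member, and DESeq2 called 53 genes and 0 members. Under another scaling, relative log expression, the median of all genes at 18 h was 0.00, 59.8% of called genes were higher in place of 33.0%, and 8 members were again called. At 6 h the share of called genes that were higher was 56% under that scaling in place of 35.6%.

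In PL 1 member was called higher at 1 h (0.225% of all genes), 7 at 2 h (0.863%), 7 at 4 h (1.05%), 4 at 6 h (0.158%) and 8 at 18 h (11.3%). The members' median log2 fold change was 1.35, 4.04, 5.50, 1.71 and 4.61 at these hours. Over all genes tested the median was 0.09 at 6 h and -0.15 at 18 h, where 80.7% of called genes were higher (69% under relative log expression scaling). PF libraries were fitted together over 1 to 6 h with the hour as a term, and 5 of 9 members were called higher there, where 0.525% of 13893 genes were. No member was called lower in U0126 than in DMSO in any of these 10 comparisons, and cyp-35B1 was called in none. Without N2 untreated replicate 2, the common dispersion fell to 0.0626, against 0.129 with it, and cyp-35B1 was also called in PL at 4 h.

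**Figure D2:**
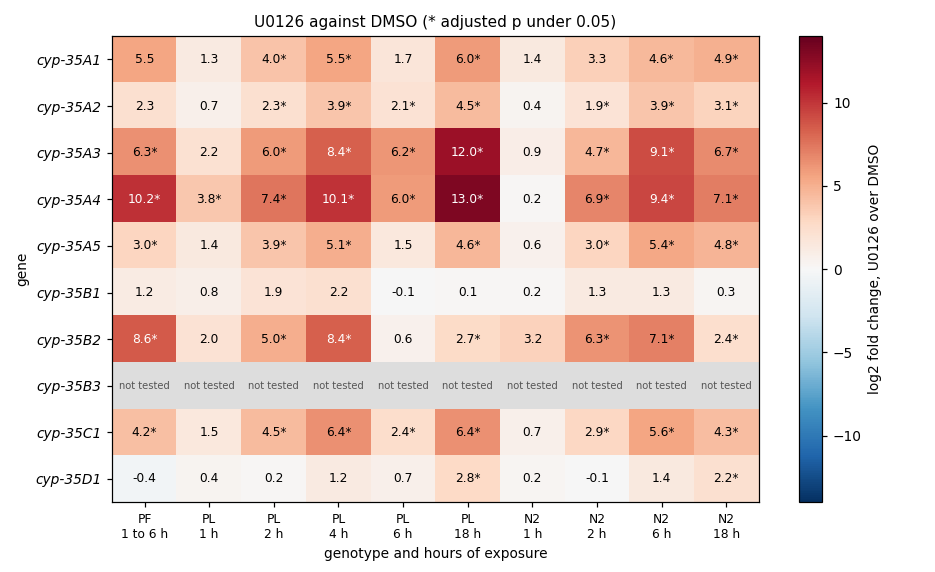
Log2 fold change of U0126 over DMSO for each cyp-35 gene (rows) in PF over 1 to 6 h, in PL at 1, 2, 4, 6 and 18 h and in N2 at 1, 2, 6 and 18 h (columns); an asterisk marks an edgeR adjusted p under 0.05. Values run up to 13.03 for cyp-35A4 in PL at 18 h, and cyp-35B1 and cyp-35D1 have the fewest asterisks of the 9 tested genes.

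cyp-35A3 and cyp-35A4, neighbouring CYP35A genes, gave the largest fold changes of the family in PL at each hour and in N2 at 6 and 18 h, while cyp-35B2 exceeded cyp-35A3 in PF and in N2 at 2 h. In PL cyp-35A4 had 18.0, 3.86 and 12.2 CPM in U0126 against 1.21, 0.843 and 0.106 CPM in DMSO at 1 h, the only member called at that hour (log2 3.82 ± 0.46, edgeR adjusted p = 1.54e-05). All 3 U0126 libraries were above all 3 DMSO libraries. Replicate 2, 1 of the pair of replicates with high molt genes, gave the smallest U0126 value. With the replicate number as a block, 2 members were called at 1 h, cyp-35A4 (log2 3.69, adjusted p = 0.00276) and cyp-35C1 (log2 1.63, adjusted p = 0.0246). Without replicates 1 and 2 of both treatments the same 2 were called, at log2 6.70 (adjusted p = 5.11e-05) and 2.89 (adjusted p = 0.0436).

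At 2 h in PL cyp-35A4 had 94.6 and 119 CPM in U0126 against 0.736 and 0.555 CPM in DMSO. At 4 h it had 872 and 546 CPM against 0.790 and 0.448 CPM, and at 6 h 29.6 and 37.5 CPM against 0.637 and 0.510 CPM. The U0126 level at 6 h was thus far under that at 4 h, with DMSO at about the same level. At 18 h it had 290.4 and 494 CPM in U0126 against 0.0695 and 0 CPM in DMSO. That comparison set 11345 counts against 1 count, a ratio of 10238 with a 95% counting interval of 1837 to 404418. The intervals of such ratios cover counting error only. The fitted log2 fold changes were 7.44 ± 0.64 at 2 h, 10.09 ± 0.71 at 4 h, 5.98 ± 0.64 at 6 h and 13.03 ± 0.87 at 18 h (edgeR adjusted p = 2.2e-08, 6.71e-10, 7.2e-06 and 2.91e-10). The 18 h value depends on the prior count because of the single DMSO count, and was 15.66 without DMSO replicate 1 and 12.25 without DMSO replicate 2. By fold change cyp-35A4 ranked 1 of 16462 genes at 18 h and 2 at 4 h.

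In N2 cyp-35A4 had 1.71 and 0.901 CPM in U0126 against 1.28 and 1.04 CPM in DMSO at 1 h, where the groups overlapped and the difference was not called (log2 0.18, edgeR adjusted p = 1). It had 46.1 and 60.2 CPM against 0.405 and 0.494 CPM at 2 h, 841 and 834 CPM against 1.36 and 1.16 CPM at 6 h, and 230 and 246 CPM against 2.01 and 1.79 CPM at 18 h. The 6 h level in U0126 was the highest of the 4 hours. The mean level in U0126 was 118, 666 and 125 times that in DMSO at 2, 6 and 18 h, and the fitted log2 fold changes were 6.88 ± 0.64, 9.39 ± 0.67 and 7.13 ± 0.61 (edgeR adjusted p = 1.21e-07, 7.38e-10 and 3.51e-08). In PF cyp-35A4 had 1.86 CPM in U0126 against 0 in DMSO at 1 h, 3.82-fold higher against a floor of 3 DMSO counts. A fold given below as "at least" is set against this floor, takes the U0126 counts as exact and is not a confidence limit. It had 56.5 against 0.222 CPM at 2 h (a ratio of 255, interval 70.1 to 2108, from 2 DMSO counts), 184 against 1.09 CPM at 4 h and 1588 against 0.375 CPM at 6 h. Its log2 fold change over the 4 hours was 10.23 ± 0.61 (edgeR adjusted p = 1.62e-05), the highest of 13893 genes. It was 7.58 to 11.24 with 1 PF library left out, the lowest without the 6 h DMSO library and the highest without either 4 h library. Leaving out 1 PF library in effect drops its hour, since the other library of that hour then sets only the hour term.

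cyp-35A3 was likewise called at 2, 4, 6 and 18 h in PL. Its PL libraries at 1 h had 23.3, 7.91 and 24.9 CPM in U0126 against 3.41, 3.37 and 5.32 CPM in DMSO (log2 2.18 ± 0.49, edgeR adjusted p = 0.054, not called). It had 137 and 170 CPM against 3.23 and 1.97 CPM at 2 h, and 1256 and 845 CPM against 3.95 and 2.09 CPM at 4 h. At 6 h it had 66.4 and 74.8 CPM in U0126 against 1.49 and 0.612 CPM in DMSO. At 18 h the U0126 level was high again and the DMSO level low, with 667 and 988 CPM against 0.0695 and 0.370 CPM, DMSO values that rest on 5 counts. The log2 fold changes were 5.97 ± 0.69, 8.42 ± 0.77, 6.2 ± 0.74 and 11.97 ± 0.94 at 2, 4, 6 and 18 h (edgeR adjusted p = 3.04e-06, 4.15e-08, 4.01e-05 and 6.45e-09). The 18 h value was 11.20 and 13.33 without DMSO replicate 1 and 2 in turn, and the 6 h value 6.93 without DMSO replicate 1. At 18 h cyp-35A3 ranked 2 of all genes by fold change, after cyp-35A4.

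In N2 cyp-35A3 had 5.14 and 7.36 CPM in U0126 against 2.78 and 3.94 CPM in DMSO at 1 h, not called. It had 87.0 and 112 CPM against 3.13 and 4.70 CPM at 2 h, 1096 and 1104 CPM against 1.72 and 2.32 CPM at 6 h, and 443 and 458 CPM against 4.93 and 5.01 CPM at 18 h. The groups did not overlap at any of the 4 hours. At 6 h the mean was 544 times that in DMSO (log2 9.10 ± 0.79, edgeR adjusted p = 3.06e-08), and cyp-35A4 and cyp-35A3 ranked 3 and 4 of all genes by fold change. In PF cyp-35A3 had 8.38 against 3.41 CPM at 1 h, 98.2 against 2.33 at 2 h, 334 against 5.43 at 4 h and 2222 against 1.44 at 6 h, the highest level of any member in any library. Its PF log2 fold change of 6.35 ± 1.10 (edgeR adjusted p = 0.0299) was lost without either 2 h or either 4 h library (adjusted p = 0.235 to 0.272). It was 4.97 and 4.98 without the 6 h DMSO and U0126 libraries and 7.51 without either 1 h library.

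**Figure D3:**
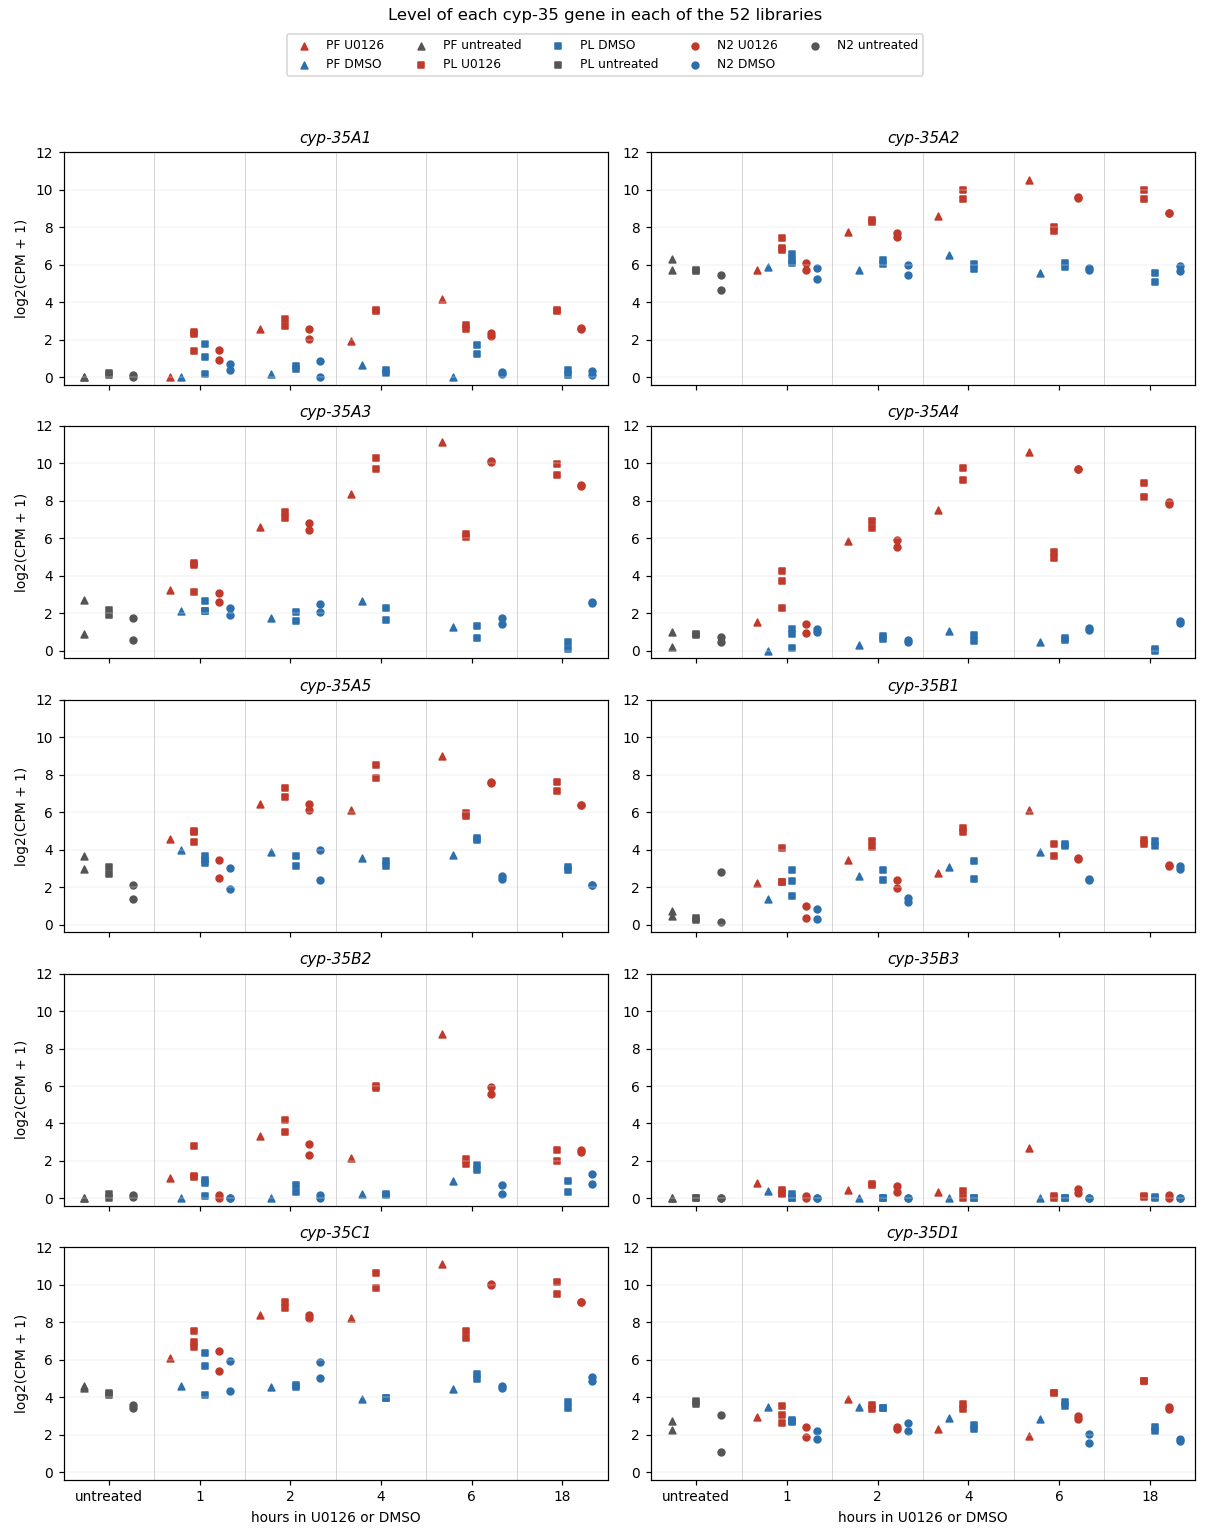
Log2(CPM + 1) of each of the 10 cyp-35 genes in all 52 libraries against hours of treatment, with untreated worms at the left; triangles are PF, squares PL and circles N2, red U0126, blue DMSO and grey untreated. cyp-35A2, A3, A4, A5 and cyp-35C1 in U0126 lie above all DMSO and untreated libraries from 2 h on, while cyp-35B1 and cyp-35D1 in U0126 overlap them.

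cyp-35A2, the member with the highest level without the drug, rose at 2, 4, 6 and 18 h in PL and at 2, 6 and 18 h in N2. In PL it had 169, 107 and 118 CPM in U0126 against 94.5, 66.0 and 73.9 CPM in DMSO at 1 h (log2 0.70 ± 0.20, edgeR adjusted p = 0.374). It had 333 and 306 CPM against 64.4 and 76.1 CPM at 2 h, 1020 and 726 CPM against 65.3 and 52.7 CPM at 4 h, 219 and 256 CPM against 66.0 and 57.8 CPM at 6 h, and 720.4 and 1012 CPM against 33.2 and 46.1 CPM at 18 h. The groups were apart at every hour in PL. The log2 fold changes were 2.26 ± 0.25 at 2 h, 3.89 ± 0.27 at 4 h, 2.07 ± 0.25 at 6 h and 4.48 ± 0.28 at 18 h (edgeR adjusted p = 1.55e-06, 6.58e-10, 4.49e-05 and 9.37e-11).

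In N2 cyp-35A2 had 51.2 and 66.4 CPM in U0126 against 36.2 and 55.8 CPM in DMSO at 1 h, where the groups overlapped. It had 176.4 and 204 CPM against 43.3 and 61.5 CPM at 2 h, 784 and 746 CPM against 52.3 and 55.4 CPM at 6 h, and 426 and 435 CPM against 59.7 and 49.9 CPM at 18 h. The fold change of the means was 3.63, 14.2 and 7.86 at 2, 6 and 18 h (log2 1.89 ± 0.25, 3.85 ± 0.27 and 3.14 ± 0.26, edgeR adjusted p = 3.51e-05, 7.38e-10 and 2.51e-08). In PF it had 51.8 against 57.8 CPM at 1 h, 210 against 52.3 at 2 h, 392.1 against 90.3 at 4 h and 1452 against 46.5 at 6 h. These 4 pairs, with a 1 h pair in the other direction, gave a PF log2 fold change of 2.28 ± 0.58 that was not called (edgeR adjusted p = 0.172).

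cyp-35A5, at the head of the cluster that holds the cyp-35B genes, rose at 2, 4 and 18 h in PL and at 2, 6 and 18 h in N2. Its PL levels were 31.1, 20.3 and 29.4 CPM in U0126 against 9.82, 8.93 and 11.9 CPM in DMSO at 1 h (edgeR adjusted p = 0.269), 113 and 156 CPM against 7.81 and 11.5 CPM at 2 h, and 362 and 225 CPM against 7.802 and 9.41 CPM at 4 h. At 6 h it had 54.4 and 61.6 CPM in U0126 against 24.0 and 21.8 CPM in DMSO, its highest DMSO level, and at 18 h 137 and 197 CPM against 6.53 and 7.41 CPM. The PL groups did not overlap at 6 h, yet the log2 fold change of 1.46 ± 0.45 was not called there (edgeR adjusted p = 0.369). At 2, 4 and 18 h it was 3.89 ± 0.49, 5.09 ± 0.52 and 4.61 ± 0.51 (adjusted p = 9.79e-06, 3.11e-07 and 2.74e-06). In N2 cyp-35A5 had 67.9 and 85.3 CPM in U0126 against 4.17 and 14.6 CPM in DMSO at 2 h, 190 and 192 CPM against 4.43 and 4.99 CPM at 6 h, and 81.9 and 83.8 CPM against 3.38 and 3.40 CPM at 18 h. The N2 log2 fold changes were 3.05 ± 0.47, 5.36 ± 0.53 and 4.77 ± 0.52 (edgeR adjusted p = 0.000338, 2.84e-07 and 6.36e-07), and the 2 h value was 2.41 without DMSO replicate 1 and 4.22 without DMSO replicate 2. In PF it had 22.7 against 14.95 CPM at 1 h, 86.8 against 13.4 at 2 h, 67.6 against 10.7 at 4 h and 511 against 12.2 at 6 h. The PF log2 fold change of 2.97 ± 0.55 (edgeR adjusted p = 0.0439) was lost without either 2 h or either 4 h library (adjusted p = 0.211 to 0.304), was 2.17 without either 6 h library, and 3.64 without either 1 h library.

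cyp-35A1 stayed low in every group, with at most 17.1 CPM. In PL it had 5.56 and 7.53 CPM in U0126 against 0.340 and 0.493 CPM in DMSO at 2 h, 10.96 and 10.69 CPM against 0.296 and 0.149 CPM at 4 h, 5.86 and 4.83 CPM against 2.23 and 1.33 CPM at 6 h, and 10.46 and 10.96 CPM against 0.0695 and 0.278 CPM at 18 h. In N2 it had 3.04 and 5.01 CPM against 0 and 0.803 CPM at 2 h, 4.08 and 3.50 CPM against 0.185 and 0.116 CPM at 6 h, and 4.96 and 5.16 CPM against 0.0913 and 0.239 CPM at 18 h. Every U0126 library given here exceeded the DMSO libraries of its hour. The log2 fold change was 4.04 ± 0.86, 5.50 ± 1.00 and 6.01 ± 1.00 in PL at 2, 4 and 18 h (edgeR adjusted p = 0.0111, 0.0016 and 0.000376), and 4.59 ± 0.95 and 4.93 ± 0.96 in N2 at 6 and 18 h (adjusted p = 0.00864 and 0.000401). It was not called in PL at 6 h (1.71, adjusted p = 0.87) or in N2 at 2 h (3.34 ± 0.85, adjusted p = 0.0732). In PF cyp-35A1 had 0 CPM in both libraries at 1 h. At 2 h it had 4.82 against 0.111 CPM (a ratio of 43.5, interval 7.39 to 1757), at 4 h 2.84 against 0.543 CPM (5.22, interval 1.56 to 27.3), and at 6 h 17.1 against 0 CPM, at least 91.0-fold higher. Its PF test gave 5.51 ± 1.04 (edgeR adjusted p = 0.0609).

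Some calls of cyp-35A1 were lost when 1 library was left out. Such a fit leaves 1 library in that group, so a lost call does not by itself show dependence on the library left out. In PL at 2 h it was not called without DMSO replicate 1 (log2 3.77, edgeR adjusted p = 0.358), DMSO replicate 2 (4.35, 0.17) or U0126 replicate 2 (3.73, 0.0889), and at 4 h without DMSO replicate 1 (6.09, 0.0633) or 2 (5.19, 0.0737). In N2 at 6 h it was not called without DMSO replicate 1 (4.92, 0.125) or 2 (4.30, 0.19). The 18 h calls remained, at 5.34 and 7.07 in PL without DMSO replicate 1 and 2 in turn, and at 5.78 in N2 without DMSO replicate 2. The calls of cyp-35A2, cyp-35A3 and cyp-35A4 in N2 and PL were kept in every fit that left out 1 library of the comparison, as were those of cyp-35A5.

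cyp-35C1, a lone gene of its own subfamily, had the highest level per kilobase of exon in 10 of the 13 U0126 groups, where cyp-35A2 led in 2 and cyp-35A3 in 1. Its PL levels were 184, 102 and 124 CPM in U0126 against 82.1, 49.6 and 16.3 CPM in DMSO at 1 h (log2 1.46 ± 0.38, edgeR adjusted p = 0.189), with U0126 above DMSO in every library. It had 438 and 544 CPM against 24.0 and 22.8 CPM at 2 h, 1561 and 928 CPM against 14.8 and 14.8 CPM at 4 h, 144 and 184 CPM against 36.5 and 31.02 CPM at 6 h, and 719 and 1145 CPM against 9.93 and 12.7 CPM at 18 h. As with the cyp-35A genes, the 6 h libraries in U0126 held less than those at 4 h or 18 h. The log2 fold changes in PL were 4.48 ± 0.52, 6.39 ± 0.58, 2.41 ± 0.48 and 6.39 ± 0.58 at 2, 4, 6 and 18 h (edgeR adjusted p = 3.47e-06, 3.27e-08, 0.0213 and 9.16e-08). The 6 h call was lost without any 1 of its 4 libraries (log2 2.22 to 2.57, adjusted p = 0.071 to 0.528).

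In N2 cyp-35C1 had 41.3 and 86.5 CPM in U0126 against 19.2 and 60.1 CPM in DMSO at 1 h, where the groups overlapped. It had 305 and 339 CPM against 31.3 and 57.2 CPM at 2 h, 1072 and 1025 CPM against 21.7 and 23.4 CPM at 6 h, and 538 and 536 CPM against 32.9 and 28.3 CPM at 18 h. The log2 fold changes were 2.89 ± 0.49, 5.56 ± 0.55 and 4.30 ± 0.52 (edgeR adjusted p = 0.00104, 3.06e-07 and 2.73e-06). The 2 h call was lost without DMSO replicate 1 (2.52, adjusted p = 0.101). In PF it had 68.0 against 23.4 CPM at 1 h, 334 against 22.3 at 2 h, 303 against 14.3 at 4 h and 2189 against 20.9 at 6 h. The PF log2 fold change of 4.24 ± 0.63 (edgeR adjusted p = 0.0127) was lost without either 2 h or either 4 h library (adjusted p = 0.108 to 0.139). It was 3.43 without the 6 h DMSO library and 5.03 without the 1 h U0126 library. At the top of the order in N2 at 6 h, cyp-35A3 (691 to 696 CPM per kb) and cyp-35C1 (668 to 699 CPM per kb) overlapped. In PL at 18 h, cyp-35C1 (469 to 746) overlapped cyp-35A2 (454 to 637), which overlapped cyp-35A3 (421 to 623).

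cyp-35B2 was nearly silent without the drug and had a short peak with it. Its PL levels were 6.03, 1.27 and 1.21 CPM in U0126 against 0.751, 1.01 and 0.106 CPM in DMSO at 1 h. At 2 h it had 10.5 and 17.1 CPM against 0.623 and 0.247 CPM, at 4 h 59.4 and 62.9 CPM against 0.198 and 0.149 CPM, at 6 h 3.28 and 2.62 CPM against 2.44 and 1.84 CPM, and at 18 h 2.99 and 5.04 CPM against 0.903 and 0.278 CPM. The 4 h libraries in U0126 were several times higher than those of any other PL hour, and the groups were apart at each hour, if narrowly at 6 h. The 4 h comparison rested on 3 DMSO counts (ratio 344, interval 117 to 1670). The log2 fold changes were 5.05 ± 0.85, 8.38 ± 1.05 and 2.69 ± 0.82 at 2, 4 and 18 h (edgeR adjusted p = 0.000923, 1.51e-05 and 0.0286), and 0.59 at 6 h (adjusted p = 1). The 2 h call was lost without DMSO replicate 2 (4.58, adjusted p = 0.0713) and was 5.83 without DMSO replicate 1. The 18 h call was lost without DMSO replicate 1 (3.92, adjusted p = 0.058), DMSO replicate 2 (2.08, 0.258) or U0126 replicate 2 (2.32, 0.162).

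In N2 cyp-35B2 had 0 and 0.150 CPM in U0126 against 0 and 0 CPM in DMSO at 1 h. It had 4.07 and 6.44 CPM against 0 and 0.124 CPM at 2 h (ratio 90.2, interval 24.6 to 750.4, from 2 DMSO counts), 46.5 and 60.0 CPM against 0.616 and 0.174 CPM at 6 h, and 4.65 and 5.101 CPM against 1.46 and 0.716 CPM at 18 h. The peak in N2 thus fell on 6 h among the hours sampled. The log2 fold changes were 6.27 ± 1.07, 7.07 ± 0.91 and 2.35 ± 0.77 (edgeR adjusted p = 0.00149, 2.76e-05 and 0.0167). The 2 h call was lost without DMSO replicate 1 (5.34, adjusted p = 0.0999) and was 9.13 without DMSO replicate 2, and the 6 h value was 8.19 and 6.43 without DMSO replicate 1 and 2 in turn. The 18 h call was lost without DMSO replicate 2 (1.89, adjusted p = 0.145), U0126 replicate 1 (2.39, 0.051) or U0126 replicate 2 (2.31, 0.0548). In PF cyp-35B2 had 1.12 against 0 CPM at 1 h, 2.29-fold higher against the floor of 3 counts, from 6 U0126 counts. At 2 h it had 9.07 against 0 CPM (at least 27.3-fold). It had 3.51 against 0.181 CPM at 4 h (ratio 19.4, interval 3.19 to 795) and 437 against 0.938 CPM at 6 h. No PF DMSO library reached 1 CPM, so cyp-35B2 passed the filter of the PF fit only through U0126 libraries. The PF log2 fold change was 8.55 ± 0.40 (edgeR adjusted p = 2.66e-06), kept in each fit that left out 1 library, at 6.28 without the 6 h U0126 library and 6.34 without the 6 h DMSO library.

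cyp-35B1, also called dod-13 and known as a target of the insulin-pathway factor DAF-16, was called in no comparison of U0126 with DMSO. In PL it had 16.5 and 21.0 CPM in U0126 against 6.51 and 4.19 CPM in DMSO at 2 h, and 29.9 and 34.9 CPM against 4.44 and 9.56 CPM at 4 h. At 6 h it had 11.5 and 18.99 CPM against 18.5 and 17.1 CPM, and at 18 h 18.6 and 21.8 CPM against 20.8 and 17.0 CPM. The groups were apart at 2 and 4 h and overlapped at 6 and 18 h. The log2 fold change was highest at 4 h, 2.24 ± 0.79, and was not called (edgeR adjusted p = 0.366). In N2 the levels were 10.9 and 10.3 CPM in U0126 against 4.25 and 4.47 CPM in DMSO at 6 h (1.30 ± 0.76, adjusted p = 0.651) and 7.89 and 8.16 CPM against 6.85 and 7.64 CPM at 18 h. In PF they were 3.72 against 1.63 CPM at 1 h, 9.76 against 4.99 at 2 h, 5.67 against 7.42 at 4 h and 69.5 against 13.8 at 6 h, again without a call (1.18, adjusted p = 0.302).

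cyp-35B3, the last gene of the cluster, gave 0 to 0.745 CPM in all libraries but 1. In PF at 6 h it had 5.41 CPM in U0126 against 0 in DMSO, 39 counts against 0 and at least 28.9-fold higher. In PL at 2 h it had 0.644 and 0.706 CPM in U0126 against 0 in both DMSO libraries, at least 7.57-fold higher. In N2 it had 0.259 and 0.562 CPM against 0 at 2 h (at least 4.77-fold) and 0.218 and 0.406 CPM against 0 at 6 h (at least 3.51-fold). These folds set the U0126 counts, taken as exact, against 3 counts over the DMSO group, so they are not confidence limits. They carry no test, and may include reads of the overlapping K07C6.17.

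cyp-35D1 was called higher in U0126 than in DMSO at 18 h in PL and N2 and at no earlier hour. In PL it had 28.0 and 28.3 CPM in U0126 against 4.38 and 3.61 CPM in DMSO at 18 h (log2 2.83 ± 0.46, edgeR adjusted p = 0.000278). In N2 it had 10.04 and 9.363 CPM against 2.37 and 2.21 CPM at 18 h (2.25 ± 0.46, adjusted p = 0.000624). Both differences were several times the spread between replicates. At 2 h the levels were 11.01 and 9.56 CPM in U0126 against 9.62 and 9.67 CPM in DMSO in PL, and 3.94 and 4.29 CPM against 3.53 and 5.19 CPM in N2. The 2 h groups overlapped in both genotypes (log2 0.17 in PL and -0.06 in N2). At 4 h in PL it had 11.3 and 9.52 CPM against 4.84 and 4.03 CPM (1.24, adjusted p = 0.422), and at 6 h 17.8 and 17.5 CPM against 12.5 and 10.6 CPM (0.74). At 6 h in N2 it had 7.01 and 6.29 CPM against 1.91 and 3.19 CPM (1.40 ± 0.45, edgeR adjusted p = 0.152). The groups at 4 and 6 h did not overlap. In PF cyp-35D1 had 6.70 against 10.1 CPM at 1 h, 13.9 against 9.99 at 2 h, 3.92 against 6.52 at 4 h and 2.78 against 6.06 at 6 h, in either direction (-0.37, adjusted p = 0.849).

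The response itself was compared between hours, as the U0126 over DMSO log2 fold change at the later hour minus that at the earlier one. In N2 the 18 h response exceeded that at 2 h for cyp-35A2 (1.25 ± 0.34, edgeR adjusted p = 0.0148) and cyp-35D1 (2.30 ± 0.63, adjusted p = 0.0155), where 4.23% of all genes were higher. For cyp-35B2 it was smaller (-3.92 ± 1.37, adjusted p = 0.0491), where 13.5% of all genes were lower. Under relative log expression scaling 72.1% of called genes were higher in place of 23.8%, the median of all genes was 0.10 in place of -0.30, and cyp-35B2 was not called (-3.46, adjusted p = 0.0613). The cyp-35B2 call was also lost in 7 of 8 fits that left out 1 library (-4.38 to -2.98, adjusted p = 0.053 to 0.215) and was -6.78 without DMSO 2 h replicate 2. cyp-35A2 was lost without DMSO 2 h replicate 2, U0126 2 h replicate 1 or DMSO 18 h replicate 2 (0.98, 1.15 and 1.12, adjusted p = 0.0693, 0.0511 and 0.07). cyp-35D1 was lost without replicate 2 of DMSO 2 h, U0126 2 h or DMSO 18 h (2.00, 2.37 and 2.24, adjusted p = 0.0512, 0.0523 and 0.0607).

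In PL the 18 h response exceeded that at 2 h for 4 members, where 2.36% of all genes did and 77.3% of called genes were higher (66.9% under relative log expression scaling): cyp-35A2 (2.22 ± 0.35, edgeR adjusted p = 0.00142), cyp-35A3 (6.00 ± 1.03, adjusted p = 0.00303), cyp-35A4 (5.59 ± 1.17, adjusted p = 0.00808) and cyp-35D1 (2.66 ± 0.62, adjusted p = 0.0191). cyp-35A4 was lost without DMSO 18 h replicate 2 (4.81, adjusted p = 0.0761) and was 8.22 without DMSO 18 h replicate 1. cyp-35A3 was 5.23 and 7.36 without DMSO 18 h replicate 1 and 2 in turn, and cyp-35D1 was lost in 6 of 8 such fits (2.46 to 2.90, adjusted p up to 0.111).

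Comparisons with 6 h were chosen after the levels were seen. In PL the response at 6 h was smaller than at 4 h for 4 members, where 0.128% of all genes were lower: cyp-35B2 (-7.79 ± 1.29, edgeR adjusted p = 0.00557), cyp-35C1 (-3.99 ± 0.67, adjusted p = 0.00557), cyp-35A5 (-3.63 ± 0.64, adjusted p = 0.00943) and cyp-35A2 (-1.83 ± 0.34, adjusted p = 0.0171). With 1 library left out, from 0 to 4 of these were called, and each kept its sign. The response at 18 h was larger than at 6 h for cyp-35A4 (7.05 ± 1.23, edgeR adjusted p = 0.021), cyp-35C1 (3.98 ± 0.67, adjusted p = 0.0168) and cyp-35A2 (2.41 ± 0.35, adjusted p = 0.00364), where 0.0182% of all genes, that is these 3, were called higher. That share rests on N2 untreated replicate 2: with it left out of the fit, 708 genes were called higher and 169 lower, and 7 members were called. Of 8 fits that left out 1 library, 5 kept cyp-35A2 and 1 each kept cyp-35A4 (6.28 to 9.69) and cyp-35C1 (3.67 to 4.24). In N2 the response at 18 h was smaller than at 6 h for cyp-35B2 (-4.72 ± 1.13, edgeR adjusted p = 0.0258), where 2.39% of all genes were lower and 16% of called genes higher (75.4% under relative log expression scaling, with a median of all genes of 0.12 in place of -0.16). It was lost in all 8 such fits (-5.84 to -4.08, adjusted p = 0.0569 to 0.142).

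The responses of PL and N2 were compared hour by hour, as the log2 fold change in PL minus that in N2. At 1 h and 2 h edgeR called 0 members and 0% of all genes, with 177 and 232 genes under an unadjusted p of 0.05. The largest difference at 1 h was that of cyp-35A4 (3.64 ± 0.76, edgeR adjusted p = 0.455), which was called by DESeq2. At 2 h cyp-35C1 gave 1.59 ± 0.65, not called.

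At 6 h the response was smaller in PL for cyp-35A2 (-1.78 ± 0.34, edgeR adjusted p = 0.037), cyp-35A5 (-3.89 ± 0.64, adjusted p = 0.00936) and cyp-35B2 (-6.48 ± 1.14, adjusted p = 0.022), where 0.0425% of all genes were called lower. These 3 are among the 7 genes so called, and 36.4% of called genes were higher (10% under relative log expression scaling, with a median of all genes of -0.04 in place of 0.18, and 75% without N2 untreated replicate 2). cyp-35C1 (-3.15, adjusted p = 0.074), cyp-35A4 (-3.41, 0.312) and cyp-35A3 (-2.90, 0.689) had the same sign and were not called. For cyp-35A5 the genotypes were apart in both treatments, with 54.4 and 61.6 CPM in PL in U0126 against 190 and 192 CPM in N2, and with 24.0 and 21.8 CPM in PL in DMSO against 4.43 and 4.99 CPM in N2. With 1 library left out, cyp-35A2 was lost in all 8 fits (-1.90 to -1.67, edgeR adjusted p = 0.108 to 0.325), cyp-35B2 in 6 (-7.60 to -5.84) and cyp-35A5 in 5 (-3.98 to -3.81).

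At 18 h the response was larger in PL for cyp-35A2 (1.34 ± 0.34, edgeR adjusted p = 0.0395), cyp-35A3 (5.30 ± 1.02, adjusted p = 0.00629) and cyp-35A4 (5.90 ± 1.11, adjusted p = 0.00487), where 1.63% of all genes were called higher. cyp-35C1 gave 2.09 ± 0.66 (adjusted p = 0.097). Under relative log expression scaling the median difference over all genes was -0.23 in place of 0.30, 12.5% of called genes were higher in place of 91.2%, and cyp-35A2 was no longer called (0.79, adjusted p = 0.243, and 0.77 and 0.79 with no filter and by DESeq2), while cyp-35A3 and cyp-35A4 were. For these 2 the DMSO level differed between the genotypes as well. With 1 library left out, cyp-35A2 was lost in 7 of 8 fits (1.13 to 1.52, edgeR adjusted p up to 0.193). cyp-35A3 was lost without PL DMSO 18 h replicate 1 (4.53, 0.0725) and was 6.67 without replicate 2, and cyp-35A4 was lost without PL DMSO 18 h replicate 2 (5.12, 0.0623) and was 8.53 without replicate 1.

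**Figure D4:**
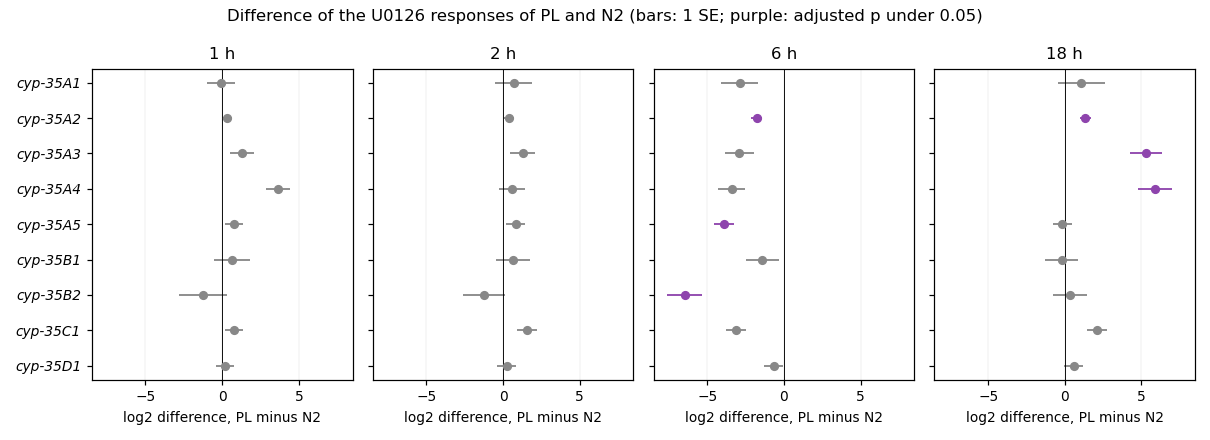
Response to U0126 (log2 fold change over DMSO) in PL minus N2 for each tested cyp-35 gene at 1, 2, 6 and 18 h. Bars are 1 approximate SE, the size of the difference divided by the square root of the F statistic. Purple marks an edgeR adjusted p under 0.05. At 6 h the called differences are below 0 (-6.48 for cyp-35B2) and at 18 h above 0 (5.90 for cyp-35A4).

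Between PL and PF over 1 to 6 h, edgeR called 0 of 9 members and 0% of 15441 genes, with 852 genes under an unadjusted p of 0.05. The differences reached -5.07 ± 1.82 for cyp-35B2 (adjusted p = 0.752), -3.30 ± 1.59 for cyp-35A4 (0.915) and 0.95 ± 0.32 for cyp-35D1 (0.718), so that sizes up to several doublings were not resolved. At 6 h, where PF has 1 library per treatment, the members' levels in U0126 lay far apart: cyp-35A3 had 66.4 and 74.8 CPM in PL, 2222 CPM in PF and 1096 and 1104 CPM in N2. cyp-35B2 had 3.28 and 2.62 CPM in PL, 437 CPM in PF and 46.5 and 60.0 CPM in N2.

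The DMSO libraries were not constant. In DMSO at 2 h, cyp-35A2 (0.57 ± 0.24, edgeR adjusted p = 0.0409), cyp-35B1 (1.98 ± 0.81, adjusted p = 0.0335), cyp-35B2 (2.82 ± 1.24, adjusted p = 0.0492) and cyp-35D1 (1.29 ± 0.44, adjusted p = 0.0128) were higher in PL than in N2, where 34.6% of all genes were. Without N2 DMSO 2 h replicate 1 none of the 4 was called (0.34, 2.18, 1.89 and 1.04, adjusted p = 0.0912 to 0.328), and without N2 DMSO 2 h replicate 2 cyp-35B1 was lost (1.81, 0.141) and cyp-35B2 was 5.68. Without PL DMSO 2 h replicate 1 cyp-35B1 and cyp-35B2 were lost (1.66 and 2.05, adjusted p = 0.134 and 0.277), and without replicate 2 cyp-35A2 was (0.41, 0.226). At 18 h, cyp-35A5 (1.61 ± 0.48, edgeR adjusted p = 0.0089), cyp-35B1 (1.97 ± 0.77, adjusted p = 0.041) and cyp-35D1 (1.39 ± 0.46, adjusted p = 0.0181) were higher in PL, where 20.3% of all genes were. cyp-35A3 (-4.0 ± 0.85, adjusted p = 0.000824) and cyp-35A4 (-4.75 ± 1.01, adjusted p = 0.000788) were lower in PL, where 23.1% of all genes were. Of all genes called, 46.8% were higher (59.1% under relative log expression scaling, with a median of all genes of 0.00 in place of -0.18). cyp-35B1 was lost without any 1 of the 4 libraries (1.72 to 2.18, adjusted p = 0.0712 to 0.155), cyp-35D1 without N2 DMSO replicate 1 (1.44, 0.068) or 2 (1.33, 0.0986) or PL DMSO replicate 1 (1.14, 0.116), and cyp-35A5 without N2 DMSO replicate 2 (1.61, 0.0581). cyp-35A3 and cyp-35A4 kept their calls, at -5.36 to -3.23 and -7.38 to -3.97, with the ends set by the PL DMSO libraries. Of the 12 intestine markers 8 were higher in PL and 1 lower in DMSO at 2 h, and 3 higher and 2 lower at 18 h. Of the 10 oocyte markers 9 and 3 were lower in PL at these hours. Their part was not tested.

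Within PL, DMSO at 18 h was set against untreated worms after the levels were seen. cyp-35B1 had 20.8 and 17.0 CPM in DMSO at 18 h against 0.256 and 0.171 CPM untreated (6.48 ± 0.99, edgeR adjusted p = 7.18e-05). With cyp-35B2 (3.27 ± 1.14, adjusted p = 0.0423) it was 1 of 2 members that were higher, where 13.5% of all genes were. cyp-35A3 had 0.0695 and 0.370 CPM in DMSO at 18 h against 2.79 and 3.53 CPM untreated (-3.80 ± 0.85, adjusted p = 0.00277). cyp-35A4 (-4.0 ± 1.06, adjusted p = 0.00943) and cyp-35D1 (-1.47 ± 0.45, adjusted p = 0.0205) were lower too, where 7.92% of all genes were. Of all genes called, 63.1% were higher, and under relative log expression scaling 46.7% were and cyp-35B2 was not called (3.12, adjusted p = 0.0545). The rise of cyp-35B1 was kept in all 4 fits that left out 1 library (6.23 to 6.85). cyp-35D1 was lost in all 4 (adjusted p = 0.065 to 0.14), cyp-35A3 without DMSO replicate 1 (-3.04, adjusted p = 0.0749), cyp-35A4 without either DMSO library (-6.63 and -3.22, adjusted p = 0.0523 and 0.0841), and cyp-35B2 without PL untreated replicate 1 or DMSO replicate 1 (1.93 and 2.05, adjusted p = 0.325 and 0.478).

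Outside the family, P450 genes were called most often at 2 h. Of 61 tested genes outside the family, 13, 26, 23, 3 and 8 were higher in U0126 in PL at 1, 2, 4, 6 and 18 h, and 2 were lower at 18 h. In PF 12 of 58 were higher. In N2 1, 21, 9 and 5 were higher at 1, 2, 6 and 18 h, and 6 were lower at 18 h. Their median log2 fold change was 1.45 in PL at 2 h and -0.08 at 18 h, and 1.07 in N2 at 2 h and -0.33 at 18 h. From 2 h to 18 h the response of 0 of the 61 grew, and that of 16 in PL and 20 in N2 shrank (median -1.60 and -1.80, against -0.08 and -0.30 over all genes). Over the same hours the response of 4 cyp-35 genes grew in PL. In N2 that of 2 grew and that of cyp-35B2 shrank. The summed level of the 64 other P450 genes in N2 was 706 and 704 CPM in U0126 against 703 and 717 CPM in DMSO at 18 h, where the groups overlapped. The cyp-35 sum at that hour was more than 10 times higher in U0126.

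The P450 genes outside the family with the smallest adjusted p at 2 h, cyp-33C1, cyp-33C2, cyp-34A7 and cyp-34A8, are named here. cyp-34A7 was called in N2 at 1 h (4.15, edgeR adjusted p = 0.0268), before any cyp-35 gene, and its log2 fold change was 8.69, 8.61 and 2.64 at 2, 6 and 18 h. In PL it was 6.4 at 1 h, 8.69 at 2 h, 10.15 at 4 h, 6.47 at 6 h and 3.61 at 18 h. cyp-33C2 averaged 308 CPM in U0126 against 3.89 CPM in DMSO in PL at 4 h, and 13.4 against 2.88 CPM at 18 h. cyp-33C1 gave 10.21 in PL at 2 h and 3.47 at 18 h, and 7.52 in N2 at 2 h and 3.24 at 18 h. cyp-34A8 gave 2.08 in PL and 2.58 in N2 at 2 h and was called in neither at 18 h (0.28 and -0.02).

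The electron donors of P450 enzymes rose in part. emb-8, the P450 reductase, averaged 587 CPM in U0126 against 127 CPM in DMSO in PL at 2 h (2.30 ± 0.19, edgeR adjusted p = 1.81e-08) and 374 against 132 CPM at 4 h. In N2 it averaged 350.4 against 182 CPM at 2 h (0.97 ± 0.18, adjusted p = 0.00396) and 250 against 184 CPM at 18 h (0.61, adjusted p = 0.0103), and in PF its log2 fold change was 1.41 (adjusted p = 0.0213). cytb-5.1, a cytochrome b5, averaged 184 against 60.1 CPM in PL at 2 h and 62.3 against 31.4 CPM in N2 at 2 h. cytb-5.2, the other listed cytochrome b5, was called in no comparison of U0126 with DMSO.

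The RNA of 10 listed regulators of detoxification genes was not called in PL at 1, 2, 4 or 6 h. It was not called in N2 at 1, 2 or 6 h either, or in PF over 1 to 6 h. The 10 include mdt-15, a Mediator subunit needed in worms for induction of detoxification genes, and aha-1, the partner of the aryl hydrocarbon receptor. At 18 h nhr-23 was higher in PL (1.12) and in N2 (1.14), the only 1 of the 10 called in PL. In N2 nhr-49 (0.50) and daf-16 (0.42) were also higher, and nhr-8 (-1.80), nhr-176 (-1.07), aha-1 (-0.94) and elt-2 (-1.66), an intestinal GATA factor, were lower. mdt-15 was not called there (0.11, edgeR adjusted p = 0.575).

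Tissue markers moved at 18 h in N2, beside the cyp-35 rise. Of 12 intestine markers 9 were lower in U0126 and 0 higher (median -1.47), with sums of 1803 to 1845 CPM against 4571 to 4648 CPM in DMSO. Of 6 body wall muscle markers 6 were lower, with sums of 1610 to 1657 CPM against 5066 to 5528 CPM. Of all genes 30.4% were called lower there. The 10 oocyte markers summed to 11828 to 11966 CPM in U0126 against 7198 to 7393 CPM in DMSO, with 0 called. In PL at 18 h 3 oocyte markers were higher, with sums of 6837 to 8825 CPM against 4171 to 4752 CPM. In PL at that hour 1 intestine marker was lower, with sums of 3237 to 3638 CPM against 4010 to 4180 CPM, and 6 of the 12 had a higher response in PL than in N2. At the hours of the highest cyp-35 sums the intestine markers summed to 5491 to 6341 CPM in U0126 against 4686 to 4966 CPM in DMSO in PL at 4 h, to 7331 against 5598 CPM in PF at 6 h, and to 3000 to 3037 against 3618 to 3670 CPM in N2 at 6 h. At PL 6 h, where the family was low, they summed to 4518 to 5201 CPM against 4642 to 4829 CPM. Their part in the results on the cyp-35 genes was not tested.

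Across the 29 group means of log2(CPM + 1), which share libraries and the drug, cyp-35A1 to cyp-35A5 and cyp-35C1 moved together, with pairwise r from 0.911 to 0.991, the highest for cyp-35A3 with cyp-35A4. cyp-35B2 correlated with these 6 at 0.844 to 0.891, and cyp-35B1 with the other members at 0.271 to 0.729. For cyp-35D1 the values ran from -0.143 to 0.426. Among 13126 candidates the genes whose group means were most like the cyp-35A mean were clec-206 (r = 0.966), ugt-22 (0.964), stdh-2 (0.960), cyp-14A4 (0.954) and cest-35.2 (0.952). Those most like the cyp-35B mean were moc-2 (0.943), cyp-13A10 (0.942), cest-35.1 (0.932), gba-2 (0.928) and W01A11.1 (0.923). These correlations describe 29 groups and carry no test.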

How the data were processed

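The deposited tables hold whole-number counts of reads per gene, 1 table per library, and the submitters' processing notes name CASAVA, TopHat, DESeq and the genome build ce10. The sources used here do not give the counting tool, its strand setting or tool versions. Rows that name no gene were left out of library sizes: reads in no gene came to 48.2% to 54.8% and ambiguous reads to 0.31% to 0.45% of the table totals in 51 libraries. Gene IDs were matched to names for 44932 of 45461. Exon lengths, gene order and overlaps come from the Ensembl WBcel235 annotation, not from the annotation used for counting. No sequence was analysed here.

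From these counts, CPM was computed per library over counts assigned to genes. The 16462 genes that reached 1 CPM in 2 or more libraries were tested in 1 edgeR 4.0.16 quasi-likelihood fit (R 4.3.3, limma 3.58.1, TMM scaling, factors 0.767 to 1.29) of 52 libraries in 29 groups, with 23 residual degrees of freedom. PF, with 1 library per hour and treatment, was fitted with the hour as a term (13893 genes), and PL with PF likewise (15441 genes). Calls are Benjamini-Hochberg adjusted p-values below 0.05, adjusted over all genes tested. Of 26 comparisons, 22 were planned and 4 were added after the levels were seen: the response at 18 h minus 6 h in N2 and in PL, at 6 h minus 4 h in PL, and PL DMSO at 18 h against untreated. Counting intervals are exact at 95% and cover counting error only. A fold given as "at least" sets the U0126 counts, taken as exact, against 3 counts over the DMSO group. It leaves out the counting error of the U0126 counts and is not a confidence limit. No pair of replicates agreed within sampling noise, and each library was counted as 1 sample. That check cannot tell separate cultures from separate preparations of 1 culture.

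In PL at 1 h same-numbered U0126 and DMSO libraries deviated together from their group means (r = 0.812, 0.866 and 0.925 for replicates 1, 2 and 3). U0126 replicate 1 with DMSO replicate 2 gave 0.727, and U0126 replicate 2 with DMSO replicate 1 gave 0.772. The numbers thus set replicate 3 apart in both treatments but separate replicates 1 and 2 only weakly. The text names all 10 members, the 5 genes most like the cyp-35A mean and the 5 most like the cyp-35B mean, 4 other P450 genes with the smallest adjusted p at 2 h in N2 and in PL, 3 electron donors and 10 regulators, of which it gives values for those called and a few others. The members and lists were chosen with earlier results of these data known. Alternatives were relative log expression scaling, no filter, DESeq2 1.42.0, a replicate block, leaving out each library in turn, and leaving out the libraries that stand apart. Fits that leave out 1 library keep the genes, scaling factors and dispersion trend of the full fit (in PF, and in PL with PF, they are estimated anew), and a lone library is then assumed to vary like the other groups. In the PF fit, leaving out 1 library removes that hour from the drug effect and lowers the residual degrees of freedom. A call lost there, or in any fit that leaves 1 library in a group, does not show dependence on the library left out alone.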

Additional observations from a re-analysis of the deposited data

Results flagged for a closer look

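The response to U0126 differed between PL and N2 by a test of the difference itself for 6 results on members of the family. At 6 h the log2 fold change in PL minus that in N2 was -1.78 for cyp-35A2, -3.89 for cyp-35A5 and -6.48 for cyp-35B2 (edgeR quasi-likelihood, adjusted p = 0.037, 0.00936 and 0.022). With 1 library left out these calls were lost in 8, 5 and 6 of 8 fits. Behind the last stand 3.28 and 2.62 CPM of cyp-35B2 in U0126 against 2.44 and 1.84 CPM in DMSO in PL, and 46.5 and 60.0 CPM against 0.616 and 0.174 CPM in N2. At 18 h the difference was 1.34 for cyp-35A2, 5.30 for cyp-35A3 and 5.90 for cyp-35A4 (edgeR adjusted p = 0.0395, 0.00629 and 0.00487), lost in 7, 1 and 1 of 8 such fits. For cyp-35A4 it sets 290.4 and 494 CPM in U0126 against 0.0695 and 0 CPM in DMSO in PL beside 230 and 246 CPM against 2.01 and 1.79 CPM in N2. cyp-35A2 was called at both hours with opposite signs, and its 18 h call was also lost under relative log expression scaling, with no filter and by DESeq2 (0.79, 0.77 and 0.79, adjusted p = 0.243, 0.642 and 0.18).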

How the results depend on the processing

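For 95 member results called, alternatives were counted once per result and setting, which gave 931. Many of these came from the same fit, so they are not separate checks. Of the 931, 755 kept the direction and the call, 174 lost the call and 2 turned the direction. Both reversals concern cyp-35B1 in untreated PL against N2, at 0.88 without N2 untreated replicate 2 in that comparison and 0.90 with it left out of the whole fit (-4.48 without N2 untreated replicate 1). Leaving it out of the whole fit also lost cyp-35C1 in untreated PF against N2 (1.18, adjusted p = 0.0978) and cyp-35B2 in DMSO at 2 h (2.83, 0.0678), and no filter lost cyp-35A2 in DMSO at 2 h (0.47, 0.197) and cyp-35B2 in 18 h minus 2 h in N2 (-3.33, 0.0673). For U0126 against DMSO, relative log expression scaling, DESeq2 and no filter kept all 53 calls, and the fit without N2 untreated replicate 2 kept all 48 that it covers. Leaving out 1 library kept 202 and lost 32.

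Of 293 alternative counts of members called, 69 were over 1.5 times from the count reported. In PL at 1 h 3 members in place of 1 were called with no filter and by DESeq2, and 2 without N2 untreated replicate 2 or without PL 1 h replicates 1 and 2. For PL minus N2 at 1 h, 1 in place of 0 was called with no filter, by DESeq2 and without those PL replicates. For PL minus N2 at 6 h it was 5 with no filter and 6 by DESeq2, in place of 3. For 18 h minus 2 h in N2 it was 5 under relative log expression scaling, with no filter and without N2 untreated replicate 2, and 6 by DESeq2, in place of 3. Without N2 untreated replicate 2 it was 1 in place of 0 for untreated PL against PF, 3 in place of 1 for 18 h minus 6 h in N2, and 7 in place of 3 for 18 h minus 6 h in PL, where no filter and DESeq2 gave 5. In PF 8 in place of 5 were called with no filter. The causes were not tested.

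With 1 library left out, the counts ran from 1 to 2 in PL at 1 h, 5 to 7 at 2 h, 6 to 7 at 4 h, 3 to 3 at 6 h and 7 to 8 at 18 h, from 2 to 7 in PF, and from 0 to 0 in N2 at 1 h, 4 to 7 at 2 h, 6 to 7 at 6 h and 7 to 8 at 18 h. For PL minus N2 they ran from 0 to 1 at 1 h, 0 to 0 at 2 h, 0 to 2 at 6 h and 1 to 3 at 18 h, and for PL minus PF from 0 to 0. For 18 h minus 2 h they ran from 2 to 4 in PL and 0 to 3 in N2, for 18 h minus 6 h from 0 to 3 in PL and 0 to 0 in N2, and for 6 h minus 4 h in PL from 0 to 4. Untreated, they ran from 2 to 3 for PL and 2 to 4 for PF against N2, and 0 to 0 for PL against PF. In DMSO, PL against N2 ran from 0 to 5 at 2 h and 2 to 4 at 18 h, and PL at 18 h against untreated from 1 to 4.

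The replicate block, which pairs same-numbered libraries, gave 2 in place of 1 in PL at 1 h. Elsewhere groups of 2 share only a number, with correlations of same-numbered deviations of 0.418, 0.215, 0.134 and 0.538 in PL at 2, 4, 6 and 18 h, and of 0.460, 0.579, -0.074 and 0.005 in N2 at 1, 2, 6 and 18 h. For PL minus N2 at 6 h 64.7% of called genes were higher under the block, against 36.4% without it. The block kept 47 of 48 calls of U0126 against DMSO and lost cyp-35B2 in PL at 18 h (2.75, adjusted p = 0.0709). Among differences of responses it lost cyp-35B2 in PL minus N2 at 6 h (-6.54, 0.0797), in 18 h minus 2 h in N2 (-3.94, 0.0805) and in 6 h minus 4 h in PL (-7.77, 0.0618), cyp-35D1 in 18 h minus 2 h in PL (2.68, 0.0643) and cyp-35A4 in 18 h minus 6 h in PL (7.02, 0.107).

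Depth limits cyp-35B2, cyp-35A1 in PF, and cyp-35A4 in PL at 18 h and in PF at 1 and 2 h. Some DMSO groups of these genes hold 0 to 3 counts, so that the fitted fold changes depend on the prior count. Depth also left cyp-35B3 untested. With N2 untreated replicate 2 left out, the genes called over the whole table went to 452 in PL at 6 h, against 38 with it, and to 4737 in PL at 18 h, against 2312 with it.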
